A study of Sus scrofa with 15 samples.

Results

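TREH, C1QL2, ST14 and TMEM215 are 4 of the 30477 genes counted in the backfat transcriptome of Iberian pigs, and they were chosen by their measured values, read counts far lower in pigs fed olive by-products than in control pigs. Each symbol was matched to its Ensembl gene: TREH to ENSSSCG00000028204, C1QL2 to ENSSSCG00000015717, ST14 to ENSSSCG00000015246 and TMEM215 to ENSSSCG00000011002. Of the 30477 genes, 14918 passed the filter on low counts, and these include the 4. Their diet differences, and with them their correlation with macrophage and giant cell genes, belong to the rule by which they were taken, so both are described below without a test.

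The 15 libraries came from 15 Iberian pigs, 5 per diet, in a study of how olive by-products in the growing diet alter the transcriptome of subcutaneous fat. The control (C) pigs ate a compound feed at 70% of ad libitum energy intake. Pigs of the dry olive pulp (DOP) group ate a compound feed with 45% olive pulp at 60% of that intake, and pigs of the wet crude olive cake (WCOC) group ate a compound feed at 60% of it beside a silage, given freely, of 75% olive cake and 25% barley straw. All began the diets at 6.5 months of age and had backfat taken with a cylindrical biopsy device at about 12 months, and the study chose the pigs to be sequenced mainly by the quantity and quality of their RNA. With 1 pen per diet, diet and pen cannot be told apart.

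TREH encodes trehalase, a membrane-anchored enzyme best known from the brush border of intestine and kidney that splits the sugar trehalose into glucose. ST14 encodes matriptase, a transmembrane serine protease of epithelia that activates prostasin and the precursor of hepatocyte growth factor and is held in check by the Kunitz-type inhibitors SPINT1 and SPINT2. C1QL2 is a secreted protein with a C1q domain, known from neurons, where it helps organise synapses through neurexins and adhesion GPCRs. TMEM215 is a transmembrane protein whose role is less well known. Fat tissue also holds macrophages, which need the receptor CSF1R, and under load these can fuse to giant cells that share with bone osteoclasts the secreted phosphoprotein SPP1 (osteopontin), the protease MMP9 and the fusion proteins DCSTAMP and OCSTAMP.

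Between 22373715 and 34745218 read pairs per library were counted on genes. Adipocyte genes were abundant in each library. Over 10 genes they summed to 17100 to 26200 CPM (counts per 1000000 after TMM scaling) across the diets, so each library held fat, as labelled. Control replicates 3 and 5 stood apart in macrophage and giant cell RNA. SPP1 was at 483 and 746 CPM in them and at 45.9 to 105 CPM in the other 3 controls, and CSF1R was at 198 and 243 CPM against 91.0 to 122 CPM. Results that rest on these libraries are therefore given with and without them. Control replicates 1 to 4 and the 5 WCOC libraries shared 1 flow cell, and control replicate 5 and the 5 DOP libraries another, so for DOP the flow cell rests on a single control. DOP and WCOC shared no flow cell, so diet and flow cell cannot be told apart between them. Skeletal muscle RNA varied most in the DOP libraries. There 6 muscle genes summed to 33.4 to 45600 CPM (median 5810) against 45.9 to 3550 CPM (median 232) in C. The highest of these DOP sums lay above the highest DOP sum of the 10 adipocyte genes, 25800 CPM. The part of muscle RNA in the differences was not tested.

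The genes lie on 3 chromosomes of the Sscrofa11.1 assembly. TREH is on the minus strand of chromosome 9 from 45949891 to 45965372, with 15 exons that sum to 1927 bases. ST14 is on the plus strand of the same chromosome from 56888246 to 56929771, and its 3 annotated transcripts have 19 exons each. C1QL2 (chromosome 15, 24674175 to 24676961) and TMEM215 (chromosome 10, 33663263 to 33670510) are both 2-exon genes on the minus strand. In the RefSeq annotation 0 genes overlap any of them. The 300 bases before the annotated start of TREH, ST14 and C1QL2 are shown because these genes were lowest beside C in the DOP pigs, and so that their promoters can be compared. They are given in the direction of the gene, with letters of a searched motif in capitals: the NFAT core GGAAAA in TREH, and the RUNX core TGTGGT, on the opposite strand, in ST14.
TREH, chr9:45965373-45965672, minus strand: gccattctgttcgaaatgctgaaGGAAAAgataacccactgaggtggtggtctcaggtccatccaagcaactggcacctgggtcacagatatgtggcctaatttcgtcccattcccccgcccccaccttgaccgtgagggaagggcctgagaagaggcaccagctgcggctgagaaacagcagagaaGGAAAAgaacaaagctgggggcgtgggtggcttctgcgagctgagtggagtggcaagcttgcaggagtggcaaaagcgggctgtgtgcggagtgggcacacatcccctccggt
ST14, chr9:56887946-56888245, plus strand: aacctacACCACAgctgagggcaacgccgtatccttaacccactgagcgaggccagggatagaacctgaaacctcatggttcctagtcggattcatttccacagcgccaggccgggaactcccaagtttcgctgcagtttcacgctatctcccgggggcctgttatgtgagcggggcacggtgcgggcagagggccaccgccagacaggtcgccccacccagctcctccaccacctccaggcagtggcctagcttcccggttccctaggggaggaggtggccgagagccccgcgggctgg
C1QL2, chr15:24676962-24677261, minus strand: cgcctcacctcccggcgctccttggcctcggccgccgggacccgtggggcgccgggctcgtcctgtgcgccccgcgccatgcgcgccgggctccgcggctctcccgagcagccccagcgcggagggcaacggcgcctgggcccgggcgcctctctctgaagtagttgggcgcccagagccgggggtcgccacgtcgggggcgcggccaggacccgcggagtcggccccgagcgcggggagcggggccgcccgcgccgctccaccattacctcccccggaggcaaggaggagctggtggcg
The windows have little in common. G and C made up 58.0% of the TREH window, 64.0% of that of ST14, 80.0% of that of C1QL2 and 63.7% of that of TMEM215, against a median of 57.0% over 19501 such windows of the genome. The C1QL2 window held 45 CG dinucleotides and the TREH window 10, beside a genome median of 14. Each window was searched on both strands for the PU.1 core GAGGAAG, the AP-1 site TGANTCA, the MITF/TFE box TCATGTG, the RUNX core TGTGGT, the NFAT core GGAAAA and the TATA box TATAAA, none of which overlaps another in the matches found. TREH held GGAAAA at 2 places, which begin at positions -277 and -113 from the start, and ST14 held TGTGGT once, at position -293. GGAAAA was present in 25.4% and TGTGGT in 16.6% of all windows. The windows of C1QL2 and TMEM215 held 0 matches.

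TREH, the glucose-releasing enzyme, was the most abundant of the 4 and varied widely between the control pigs. Control replicates 1 to 5 had 3.19, 15.8, 24.2, 29.9 and 103 CPM. The DOP replicates had 2.09, 0.830, 3.09, 2.03 and 0.628 CPM, and the WCOC replicates 1.80, 13.9, 1.18, 2.76 and 0.856 CPM. Each DOP pig was under each control pig, while WCOC replicate 2 lay among the controls and the other 4 WCOC pigs below all of them. The highest control library held 32.3 times the CPM of the lowest. The means were 35.2 ± 39.2 CPM in C, 1.73 ± 1.01 CPM in DOP and 4.09 ± 5.51 CPM in WCOC (SD, n = 5 each). From the fit, the log2 fold change (log2FC) from C was -4.34 with a standard error (SE) of 0.94 in DOP and -3.12 (SE 0.88) in WCOC. Less RNA per cell and fewer cells that hold the RNA cannot be told apart in these bulk samples, for this gene or the others.

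ST14, the matriptase gene, separated the control pigs from both olive diets. Its control libraries had 2.65, 5.21, 17.2, 5.65 and 21.6 CPM. The DOP libraries had 1.89, 1.36, 1.36, 1.24 and 0.697 CPM and the WCOC libraries 0.622, 2.13, 0.588, 1.14 and 1.33 CPM. All 10 libraries of the olive diets were lower than the lowest control, which no other of the 4 genes showed for both diets, and the levels of DOP and WCOC overlapped each other. The means were 10.4 ± 8.37, 1.31 ± 0.424 and 1.16 ± 0.631 CPM (SD, n = 5) in C, DOP and WCOC. The log2FC was -3.0 (SE 0.55) in DOP and -3.17 (SE 0.55) in WCOC, and between the olive diets it was -0.17 (SE 0.54, WCOC relative to DOP).

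C1QL2, the secreted C1q-domain protein, was a low-count gene outside the control group. It had 15, 32, 150, 28 and 157 counts in the control libraries, 12, 1, 5, 2 and 2 in DOP and 12, 27, 13, 3 and 14 in WCOC. On the CPM scale C ran from 0.736 to 5.20, DOP from 0.0377 to 0.482 and WCOC from 0.0953 to 1.01. The DOP libraries did not overlap the controls, and in WCOC replicate 2 alone reached the control range. With single-digit counts in 4 of 5 DOP libraries the low end of the range is set by counting error. The log2FC was -4.01 (SE 0.76) in DOP and -2.51 (SE 0.67) in WCOC, from means of 2.63 ± 2.17 CPM in C, 0.164 ± 0.183 CPM in DOP and 0.467 ± 0.333 CPM in WCOC (SD, n = 5).

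TMEM215 had the lowest mean of the 4 in C and WCOC, though not in DOP, and was the only one whose DOP libraries reached well into the control range. The controls had 0, 39, 100, 21 and 79 counts, the DOP libraries 44, 14, 5, 6 and 24, and the WCOC libraries 0, 4, 12, 3 and 6. Control replicate 1 and WCOC replicate 1 held 0 counts, which allows up to 0.147 and 0.0982 CPM respectively (3 counts, counting error only). The 4 controls with reads lay above all WCOC libraries, whereas the DOP libraries, at 0.154 to 1.77 CPM, overlapped both diets. The mean was 1.66 ± 1.29 CPM in C, 0.702 ± 0.654 CPM in DOP and 0.163 ± 0.145 CPM in WCOC (SD, n = 5). The log2FC was -1.27 (SE 0.82) in DOP and -3.33 (SE 0.94) in WCOC.

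**Figure D1:**
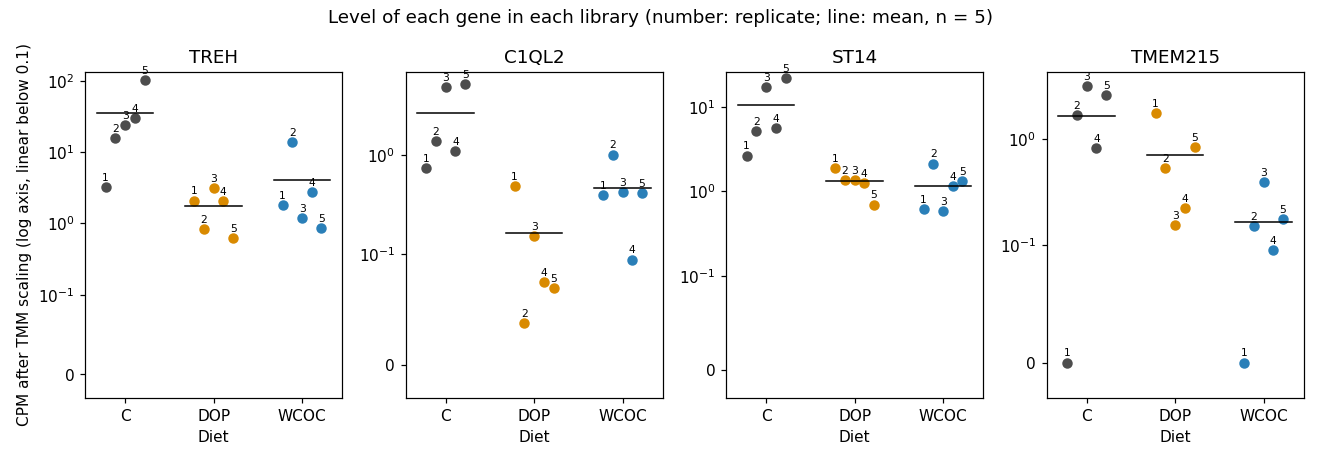
Level of TREH, C1QL2, ST14 and TMEM215 in each of the 15 libraries, as CPM after TMM scaling on an axis that is logarithmic above 0.1 and linear below, by diet; numbers beside the points are replicates and lines are means of 5. For ST14 all 10 points of DOP and WCOC lie under the 5 control points, and control replicates 3 and 5 are the top 2 control points for C1QL2, ST14 and TMEM215.

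Per kilobase of exon, a scale on which genes can be set side by side, the control means were 18.3 ± 20.3 CPM for TREH, 2.93 ± 2.34 for ST14, 1.21 ± 0.994 for C1QL2 and 0.235 ± 0.184 for TMEM215 (SD, n = 5). The means of neighbours in this order differed by less than the SD of the higher gene. Within single libraries the order was steadier: TREH was above ST14 in 5 of 5 libraries of each diet, and ST14 above C1QL2 in 5 of 5 C, 5 of 5 DOP and 3 of 5 WCOC libraries. C1QL2 was above TMEM215 in 5 of 5 C and WCOC libraries and in 2 of 5 DOP libraries. Only this last pair was in the reverse order in most libraries of a diet.

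A differentially expressed gene (DEG) had an adjusted p under 0.05 (edgeR quasi-likelihood test, Benjamini-Hochberg) together with a log2FC of 0.58 or more in either direction. At an unadjusted p under 0.05 in edgeR there were 2623 of 14918 tested genes in DOP vs. C and 3931 in WCOC vs. C. Counts of list genes or neighbours at that limit are to be read beside these. In DOP vs. C, 3 of the 4 genes lay past both limits in the lower direction, TMEM215 being the other, where 0.55% of all tested genes did so. In WCOC vs. C all 4 did, where 3.93% of tested genes did so. The diet groups did not overlap for 3 of the 4 genes in DOP vs. C, beside 1.76% of all tested genes, and for 1 of the 4 in WCOC vs. C, beside 3.87%. Nothing is read from these counts, because the genes were chosen in these contrasts, which moreover share the control pigs. Between the olive diets, 0 of the 4 passed in either direction, where 7.76% of tested genes did. These diets were on different flow cells, so diet and flow cell cannot be told apart in this contrast. The largest differences there were -2.06 (SE 0.96) for TMEM215 and 1.5 (SE 0.79) for C1QL2, with WCOC relative to DOP.

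Without control replicates 3 and 5 the differences became smaller and remained negative. The control mean of ST14 was then 4.50 ± 1.62 CPM and its lowest library, 2.65 CPM, was still above all 10 olive libraries, with a log2FC of -1.79 (SE 0.41) in DOP and -1.96 (SE 0.41) in WCOC. For TREH the control mean was 16.3 ± 13.4 CPM (SD, n = 3), and its log2FC was -3.23 (SE 0.89) in DOP and -2.0 (SE 0.86) in WCOC. The log2FC of C1QL2 was -2.70 (SE 0.70) and -1.20 (SE 0.64), and that of TMEM215 was -0.27 (SE 0.96) and -2.33 (SE 1.04), each for DOP and then WCOC. Without these 2 libraries 0 genes of the whole table were DEGs in DOP vs. C by edgeR, and 289 were in WCOC vs. C. At an unadjusted p under 0.05 there were then 1776 of 15252 tested genes in DOP and 2877 in WCOC. On the flow cell that held WCOC and control replicates 1 to 4, the WCOC log2FC was -2.19 for TREH, -2.13 for C1QL2, -2.74 for ST14 and -3.12 for TMEM215. The flow cell of DOP held 1 control. With flow cell as a term in the fit to all libraries, the DOP log2FC was -5.88 (SE 1.04) for TREH, -4.98 (SE 0.92) for C1QL2, -4.04 (SE 0.65) for ST14 and -1.91 (SE 1.24) for TMEM215. In that fit DOP is in effect compared with control replicate 5 alone, the highest control for TREH, C1QL2 and ST14. These values are therefore no separate check of the flow cell.

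**Figure D2:**
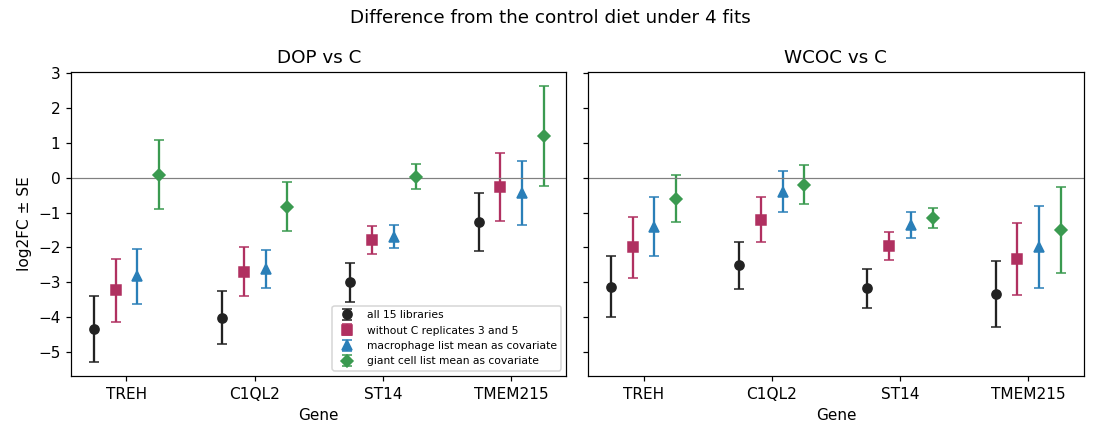
The log2FC of each gene from the control diet, with SE bars, for DOP (left) and WCOC (right), under the fit to 15 libraries, the fit without control replicates 3 and 5, and fits with the mean level of the macrophage or the giant cell list as a covariate. ST14 in DOP was at -3.0 in the first fit and at 0.03 with the giant cell covariate.

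CSF1R and SPP1, the marker genes of macrophages and giant cells, were tested between the diets. The study lists SPP1 as its largest fall in DOP, from these same libraries, so its adjusted p adds no separate evidence. SPP1 fell in both diets: the DOP libraries held 2.44 to 12.9 CPM and the WCOC libraries 15.5 to 79.0 CPM, beside 45.9 to 746 CPM in C. Its log2FC was -5.24 (SE 0.84, adjusted p = 0.0277) in DOP and -2.92 (SE 0.75, adjusted p = 0.0262) in WCOC. Without control replicates 3 and 5 it was -3.33 (SE 0.58) and -1.01 (SE 0.55), and neither passed. CSF1R did not pass in either diet, with log2FC of -0.71 (adjusted p = 0.279) in DOP and -1.01 (adjusted p = 0.0655) in WCOC. Its levels in DOP (53.3 to 133 CPM) and WCOC (49.0 to 110 CPM) overlapped those of C (91.0 to 243 CPM).

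Of 10 tested osteoclast-like giant cell genes, 6 fell in DOP and 5 in WCOC, and 0 rose. Over all tested genes, 0.764% were DEGs in DOP and 6.25% in WCOC. All the lists were chosen with earlier results of these data known. From the same libraries, the study names SPP1, MMP9, OCSTAMP and TM4SF19 among its largest falls in DOP. Nothing is therefore read from how many genes of this list passed, nor from their adjusted p. TM4SF19, a tetraspanin-like membrane protein, fell by 4.42 on the log2 scale in DOP (adjusted p = 0.0277), and its log2FC was -3.4 in WCOC (adjusted p = 0.0141). OCSTAMP and DCSTAMP, which act in cell fusion, had log2FC of -3.92 and -3.86 in DOP and -2.50 and -2.58 in WCOC, all past the limits. The matrix protease MMP9 (-3.96) and the proton pump subunit TCIRG1 (-1.07) fell in DOP, and the acid phosphatase ACP5 (-1.68) fell in WCOC. The list had a median log2FC of -2.58 in DOP and -1.95 in WCOC, and all tested genes had medians of 0.011 and 0.004. Its summed level was 122 to 958 CPM in C, 72.8 to 106 CPM in DOP and 80.7 to 177 CPM in WCOC. Without control replicates 3 and 5, 0 of the 10 passed in either diet (edgeR, with 7 in DOP and 2 in WCOC at an unadjusted p under 0.05).

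Of 13 tested macrophage genes, 1 fell in DOP and 7 in WCOC, beside DEG shares of 0.764% and 6.25% over all tested genes. Their median log2FC was -0.71 and -1.19. The one that fell in DOP was MSR1, a scavenger receptor, at -3.18 (adjusted p = 0.0397), and it also fell in WCOC at -2.68 (adjusted p = 0.0175). In WCOC the lysosomal protein CD68 (-2.11), the integrin ITGAM (-1.42), the transcription factor SPI1 (-1.28), the mannose receptor MRC1 (-1.19) and the haemoglobin scavenger CD163 (-1.16) fell too. The summed level was 320 to 962 CPM in C, 213 to 526 CPM in DOP and 163 to 408 CPM in WCOC, so the groups overlapped. Of 10 genes of lipid-associated macrophages, 2 fell in DOP and 5 in WCOC. GPNMB (-2.64 and -1.79) and LGALS3 (-2.38 and -1.90) fell in both, and TREM2 (-2.40), PLIN2 (-0.95) and CTSB (-0.93) in WCOC. Without control replicates 3 and 5, 0 genes of either list passed in either diet (edgeR). At an unadjusted p under 0.05 there were then 4 macrophage genes in each diet, and 5 lipid-associated macrophage genes in DOP and 3 in WCOC.

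**Figure D3:**
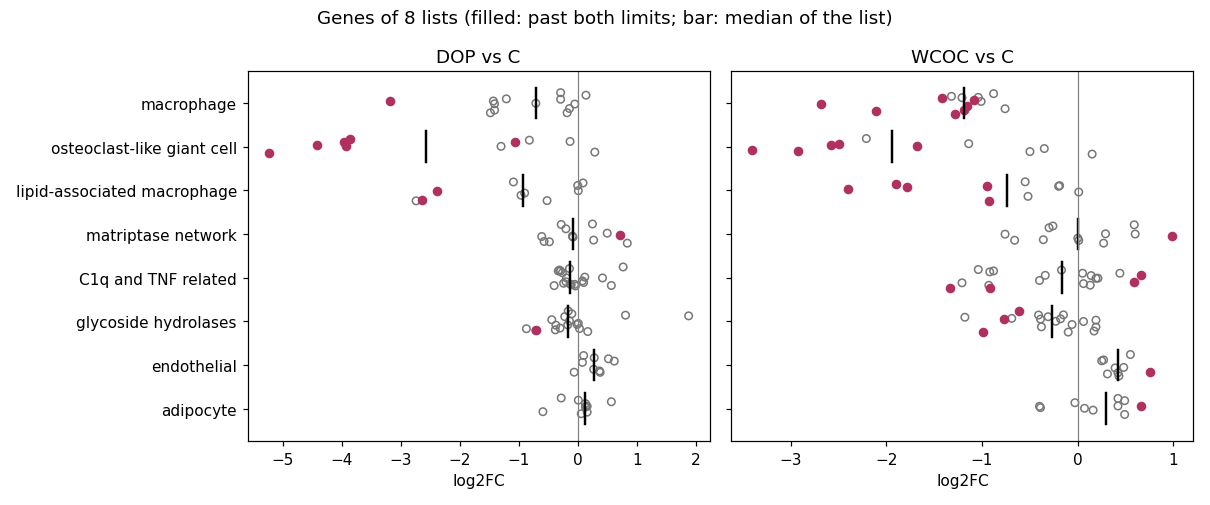
The log2FC of the tested genes of 8 lists in DOP vs. C and WCOC vs. C, 1 point per gene, filled where the gene passed both limits, with a bar at the median of the list. The giant cell median lies at -2.58 and -1.95, and the matriptase network median at -0.08 and 0.00.

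Of 22 genes linked to matriptase, among them substrates, inhibitors, similar proteases and receptors, 12 could be tested. In DOP 1 rose, MST1R, the receptor of macrophage-stimulating protein (0.72, adjusted p = 0.0277), and in WCOC 1 rose, HGF, the growth factor whose precursor matriptase cleaves (0.99, adjusted p = 0.0176), while 0 fell in either, a share near that of all tested genes in WCOC. At an unadjusted p under 0.05 there were 3 in DOP and 5 in WCOC, beside 2623 and 3931 of all 14918 tested genes. Both calls were lost without control replicates 3 and 5. Named for their role after their values were seen, the substrate protease PRSS8 had a log2FC of 0.27 (SE 0.50) in DOP and 0.01 (SE 0.50) in WCOC, and the inhibitor SPINT2 had -0.61 (SE 0.28) and -0.36 (SE 0.28). PRSS8 was itself scarce, with 5 to 31 counts per library, and its interval is correspondingly wide. Of 10 tested epithelial genes 0 passed in either diet (edgeR and DESeq2, with 4 in DOP and 1 in WCOC at an unadjusted p under 0.05 in edgeR), and the most abundant of them, the cadherin CDH1, had a log2FC of -0.98 (SE 0.43, adjusted p = 0.247) in DOP.

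The relatives of C1QL2 went both ways. Among 19 tested genes with a C1q or related domain, 0 passed in DOP (edgeR and DESeq2, with 2 at an unadjusted p under 0.05 in edgeR). In WCOC 2 rose and 2 fell, and 9 of the 19 were at an unadjusted p under 0.05. Over all tested genes, 6.25% passed in WCOC, and 3931 of 14918 were at an unadjusted p under 0.05. Of these WCOC calls, 1 held without control replicates 3 and 5. ADIPOQ, which encodes the fat-cell hormone adiponectin, rose by a log2FC of 0.66 (adjusted p = 0.0281), from 3690 ± 549 CPM in C to 5850 ± 1350 CPM, and the endothelial MMRN2 rose by 0.59 (adjusted p = 0.0217). C1QTNF3 (-1.34) and EMILIN2 (-0.92), both secreted proteins, fell. Looked at after the fact, the closest paralogue with enough counts, C1QL3, stood at a log2FC of 0.42 (SE 0.33) in DOP and 0.44 (SE 0.33) in WCOC, opposite in sign to C1QL2, and did not pass. C1QL1 with 0 to 6 counts and C1QL4 with 0 to 4 counts per library were under the filter. Of 6 tested receptors and partners of the C1QL family 0 passed in DOP (edgeR and DESeq2, with 1 at an unadjusted p under 0.05 in edgeR) and 1 rose in WCOC, the adhesion GPCR ADGRB3 (0.62, adjusted p = 0.0347), which did not pass without control replicates 3 and 5.

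Other sugar-cleaving enzymes moved little beside TREH. Of 18 tested glycoside hydrolases 1 fell in DOP and 3 in WCOC, and 0 rose. Over all tested genes, 0.764% passed in DOP and 6.25% in WCOC. GLA, the lysosomal alpha-galactosidase, fell by 0.71 on the log2 scale in DOP (adjusted p = 0.0424), and its log2FC was -0.77 in WCOC (adjusted p = 0.00714). GUSB (-0.99) and HEXA (-0.61), also lysosomal, fell in WCOC. The median log2FC of the list was -0.16 in DOP and -0.27 in WCOC, and without control replicates 3 and 5, 0 passed in either diet (edgeR, with 4 in each at an unadjusted p under 0.05). A p that misses the threshold does not show that a gene did not differ.

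The 3 nearest tested genes with a symbol on each side gave 24 neighbours, of which 0 passed in DOP (edgeR, with 5 at an unadjusted p under 0.05 and 1 past both limits by DESeq2) and 2 in WCOC (7 at an unadjusted p under 0.05). The shares that passed are near those of all tested genes, 0.764% in DOP and 6.25% in WCOC. At an unadjusted p under 0.05 there were 2623 of all 14918 tested genes in DOP and 3931 in WCOC. PHLDB1, which ends 476 bases from TREH, had a log2FC of -0.04 (SE 0.14) in DOP and 0.33 (SE 0.14) in WCOC, and it was far more abundant, at 181 ± 18 CPM in C. APLP2 and ZBTB44, which lie 16397 and 17374 bases from ST14, had log2FC of 0.16 and 0.73 in DOP and 0.19 and 0.14 in WCOC. MARCO, a scavenger receptor of macrophages 132889 bases from C1QL2, had the largest negative values of the neighbours in both diets, -1.04 (adjusted p = 0.214) and -1.21 (adjusted p = 0.0773), and did not pass. STEAP3, an iron reductase 59595 bases from C1QL2, had an adjusted p of 0.00176 in WCOC with a log2FC of -0.52, under the size limit. The 2 that passed in WCOC both flank TMEM215: the chaperone DNAJA1 (-0.63, adjusted p = 0.0266) and, 4767423 bases away, MOB3B (0.85, adjusted p = 0.0224). Neither passed without control replicates 3 and 5.

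**Figure D4:**
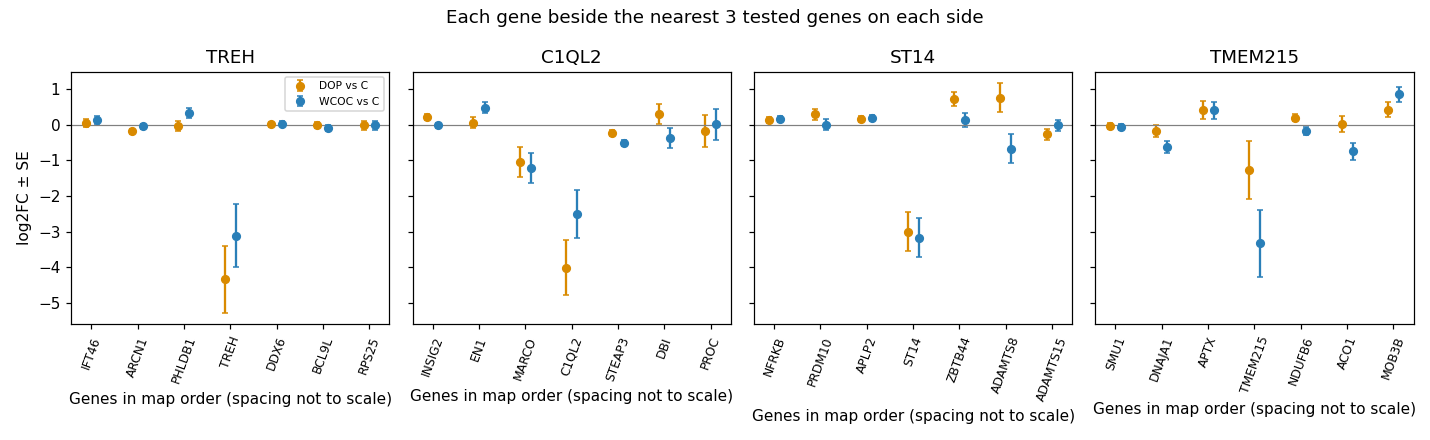
The log2FC with SE bars of each of the 4 genes and of the nearest 3 tested genes on each side, in map order and not to scale, for DOP vs. C and WCOC vs. C. In all 4 panels both points of the named gene lie under the points of its neighbours for the same diet.

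Between pigs on the same diet, the 4 genes differed in how closely they followed macrophage and giant cell RNA. Levels were taken as log2 CPM minus the mean of the diet, so that the diet differences could not enter. Over the 15 libraries, which share preparation, depth and the cell mix of each biopsy, Pearson's r and Spearman's rho are given as a description, with no test. ST14 followed the mean of the giant cell list most closely, with r = 0.928 and rho = 0.925. Its r was 0.905 with SPP1, 0.869 with the macrophage list and 0.805 with CSF1R, and its rho was 0.893, 0.868 and 0.775. Without the 2 libraries farthest from the median of the marker, r of ST14 was 0.951 with the giant cell list. The libraries left out for that list were DOP replicate 1 and control replicate 1. In the same setting r was 0.777 with SPP1, 0.781 with the macrophage list and 0.693 with CSF1R. Without control replicates 3 and 5, r of ST14 was 0.873 with the giant cell list, 0.777 with SPP1, 0.748 with the macrophage list and 0.664 with CSF1R.

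For TREH, r was 0.844 with SPP1 and 0.775 with the giant cell list (rho = 0.746 and 0.679), and without the 2 farthest libraries it was 0.861 and 0.728. With the macrophage list r was 0.563 (rho = 0.464) and with CSF1R 0.438 (rho = 0.389), and these came close to 0 without control replicate 5 and WCOC replicate 2, at 0.111 and 0.007. Whether the relations of TREH differ from each other was not tested.

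For C1QL2, r with the 4 measures was 0.673 to 0.769 and rho 0.643 to 0.679, and without the farthest 2 libraries r was 0.407 to 0.602. TMEM215 had the lowest r of the 4 genes with each measure, 0.314 to 0.614, and rho of 0.275 to 0.439. With the giant cell list its r dropped from 0.614 to 0.076 without DOP replicate 1 and control replicate 1, the latter a library with 0 counts of the gene. On the flow cell that held control replicates 1 to 4 and WCOC, r of ST14 was 0.954 with the giant cell list and 0.900 with SPP1, and r of TREH with SPP1 was 0.768.

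**Figure D5:**
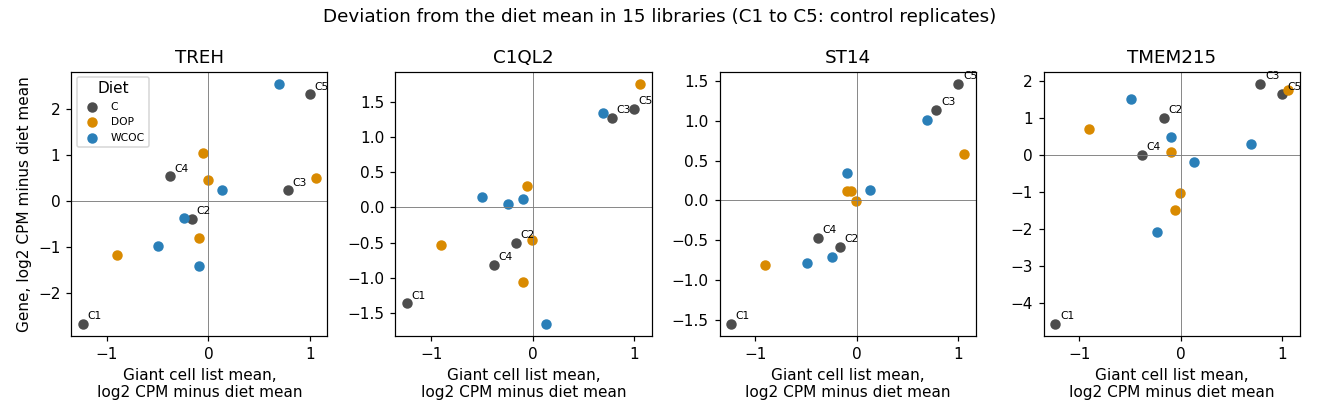
Log2 CPM of each gene minus its diet mean (vertical) against the mean log2 CPM of the giant cell list without SPP1, minus its diet mean (horizontal), for 15 libraries coloured by diet, with control replicates labelled. The points of ST14 lie close to a line (r = 0.928), and those of TMEM215 spread (r = 0.614), with control replicate 1 at the lower left of each panel.

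The 6 pairs among the 4 genes are described without a test, since the rule names correlation with the same marker genes. The highest r was 0.765 for TREH with ST14 (rho = 0.604), followed by 0.702 for C1QL2 with ST14 (rho = 0.600). Without the 2 libraries farthest from the median of the first gene, r of these pairs was 0.537 and 0.867. Without control replicates 3 and 5 it was 0.734 and 0.456. The other pairs had r of 0.402 to 0.599.

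When the mean level of the macrophage list entered the fit as a covariate, the log2FC of ST14 was -1.69 (SE 0.32) in DOP and -1.36 (SE 0.38) in WCOC. With the giant cell list it was 0.03 (SE 0.37) and -1.16 (SE 0.28). TREH was at -2.82 (SE 0.79) and -1.40 (SE 0.83) with the macrophage list, and at 0.08 (SE 0.99) and -0.60 (SE 0.68) with the giant cell list. C1QL2 was at -0.84 (SE 0.70) and -0.20 (SE 0.55) with the giant cell list, and TMEM215 at 1.19 (SE 1.44) and -1.5 (SE 1.22). Each list mean differs between the diets itself, so diet and covariate are partly the same quantity in these fits, and the part of giant cell or macrophage RNA in the differences was not tested by them.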

How the data were processed

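Backfat RNA of 15 pigs, 5 on each of the diets C, DOP and WCOC, was sequenced as paired reads of 76 bases, with 1 library per pig. The authors mapped reads to Sscrofa11.1 using HISAT2 and assigned them to Ensembl genes using HTSeq. What they deposited are raw counts of 30477 genes, with 5 summary lines that held 23.4% to 32.8% of a library and were left out here. The alignment was run with a strand-specific setting, while the strand option of the counting step and the release of the annotation are not given in the sources used here. Diets and replicate numbers come from the labels, and flow cells from the run identifiers.

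The test of the counts was that of edgeR 4.0.16 (R 4.3.3): filterByExpr by diet (14918 genes), TMM scaling, and a quasi-likelihood fit with 1 mean per diet to all 15 libraries (common dispersion 0.0814), with p-values adjusted over all tested genes, 11955 of which had a symbol. CPM and log2 values (prior count 1) were computed here from the deposited counts, not by the authors. P-values measure the spread between pigs of 1 pen per diet, and no 2 libraries of a diet agreed within sampling noise. The fit was first tested on simulated counts with known changes.

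The 4 genes and the 16 gene lists were chosen with earlier results of these data known. Besides the 4 genes and the markers CSF1R and SPP1, the text names the called genes of a list (at most 6 per list, by the size of the log2FC) or its most abundant gene, the nearest 3 tested neighbours on each side, and the 5 genes most alike in pattern. Some list members were not matched to an identifier or fell under the filter, and counts refer to those tested. Correlations between the 4 genes and those with marker genes are given without a test, since the rule names correlation with marker genes. Gene models and 300-base windows are from the RefSeq annotation of Sscrofa11.1. Alternatives were DESeq2 1.42.0 and its size factors, other filters, fits to the diets compared, a replicate block, flow cell terms, list means as covariates, each library left out in turn and, chosen after seeing the data, the fit without control replicates 3 and 5. Summaries used Python 3.11.15 with pandas 2.3.3, and plots matplotlib 3.10.9.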

Additional observations from a re-analysis of the deposited data

Results flagged for a closer look

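Dixon's test at the 95% level was applied to the CPM of the 5 libraries of each diet for 6 genes (18 groups). In 3 groups a library lay far from the others. The test assumes normally spread values, whereas these CPM were skewed and not log-transformed. How often chance would flag such a group is therefore not known, and the flags are a description. Control replicate 5 had 103 CPM of TREH, and its gap to the next control was 0.732 of the range of the group. WCOC replicate 2 had 13.9 CPM of TREH, with a gap of 0.853 of the range, and without it the WCOC log2FC of TREH was -4.42. DOP replicate 1 had 0.482 CPM of C1QL2, from 12 counts, with a gap of 0.738 of the range, and without it the DOP log2FC of C1QL2 was -4.87. The same DOP library held the highest CSF1R (133 CPM) and SPP1 (12.9 CPM) of its diet, and WCOC replicate 2 the highest of its diet (110 and 79.0 CPM). Their part in the flagged values was not tested.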

How the results depend on the processing

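The direction of each log2FC of the 4 genes from C held when any single library was left out and with other scaling, filters, DESeq2, the diets compared alone or flow cell terms. For DOP, the fit with a flow cell term rests on control replicate 5 alone. C1QL2 and TMEM215 gave no value where 10 counts were required in every library. With the giant cell list mean as a covariate, that of TREH in DOP turned to 0.08, that of ST14 to 0.03 and that of TMEM215 to 1.19, while ST14 was -1.16 in WCOC, C1QL2 was -0.84 and -0.20 in DOP and WCOC, and TREH was -0.60 in WCOC and -0.67 for WCOC vs. DOP. With the macrophage list mean, C1QL2 was -2.62 and -0.40 and ST14 -1.69 and -1.36. Without control replicates 3 and 5, C1QL2 was -2.70 and -1.20. With flow cell as a covariate, the WCOC vs. DOP log2FC was 3.71 for TREH, 2.87 for C1QL2 and 1.31 for ST14. Only control replicate 5 links the DOP flow cell to the other in that fit. The causes were not tested.

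DEGs in DOP vs. C numbered 507 by DESeq2, 2 with only the diets compared and 0 without control replicates 3 and 5, beside 114, and from 0 (without control replicate 3) to 200 (without control replicate 1) when single libraries were left out. In WCOC vs. C, beside 933, there were 486 on the shared flow cell, 289 without control replicates 3 and 5, and 468 to 1163 without single libraries. In WCOC vs. DOP, beside 1158, there was 1 with flow cell as a covariate, and 639 to 1291 without single libraries. Called macrophage genes in DOP numbered 6 by DESeq2, 0 with only the diets compared, 4 with flow cell as a covariate and 0 to 2 without single libraries. In WCOC they numbered 11, 4 and 2 in the same settings, 1 on the shared flow cell and 1 to 13 without single libraries. Called giant cell genes in DOP numbered 3 with at least 10 counts in every library, 0 with only the diets compared and 0 to 7 without single libraries. In WCOC they numbered 2 with that filter, 2 with flow cell as a covariate, 1 on the shared flow cell and 2 to 7 without single libraries. Without control replicates 3 and 5 all 4 of these counts were 0.

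Equal replicate numbers do not pair pigs, since their deviations correlated at -0.495 to 0.345. With the replicate number as a block, DEGs numbered 0 in DOP vs. C, 473 in WCOC vs. C and 561 in WCOC vs. DOP, and macrophage and giant cell genes gave 0 calls in either diet, while each of the 4 genes kept its direction.

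On the shared flow cell, with 9 libraries, r was 0.768 for TREH with SPP1 and 0.779 with the giant cell list. There C1QL2 had 0.725 with CSF1R, 0.565 with SPP1, 0.752 with the macrophage list and 0.676 with the giant cell list, and ST14 had 0.716 with CSF1R, 0.900 with SPP1 and 0.824 with the macrophage list. In the same order of measures, r of C1QL2 was 0.569, 0.407, 0.602 and 0.601 without the 2 farthest libraries, and 0.532, 0.407, 0.567 and 0.612 without control replicates 3 and 5, where ST14 with CSF1R was at 0.664. With a prior count of 5, r of TMEM215 with the giant cell list was 0.703. With single libraries left out, r of C1QL2 ran from 0.642 to 0.801 with CSF1R, 0.595 to 0.862 with SPP1, 0.684 to 0.823 with the macrophage list and 0.697 to 0.903 with the giant cell list, r of TREH with the macrophage list from 0.410 to 0.650, and r of TMEM215 with the giant cell list from 0.337 to 0.733. Counts under 10 per library limit C1QL2 and TMEM215.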

Other observations

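Among 11132 tested genes with a symbol and a mean of at least 1 CPM, the genes most alike to each of the 4 in their deviations from the diet means were looked up, as a description over 15 libraries that share depth and cell mix. ST14 was most like LPXN (r = 0.972), the scavenger receptor MSR1 (0.965) and the carboxypeptidase gene CPM (0.961), followed by SLC11A1 and COTL1. SPP1 ranked 35 and CSF1R 149 for ST14. The genes most like TREH were PADI2 (r = 0.870), WFS1, URB2, SPP1 (0.844) and SLAMF8. PADI2, which encodes an enzyme that turns arginine residues into citrulline, had means of 44.2 CPM in C, 4.16 CPM in DOP and 9.52 CPM in WCOC, while CSF1R ranked 989 for TREH. C1QL2 was most like ADAM28 (r = 0.883), RASSF4, VWA5A, RAB7B and KIF22.

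TMEM215 had different companions. CYP7B1, a steroid hydroxylase, came first (r = 0.938 over 15 libraries and 0.937 without control replicates 3 and 5), followed by ACOT7, RAB39A, TRMT11 and METTL16. In control replicate 1 and WCOC replicate 1 TMEM215 had 0 counts, so its log2 value there is set by the prior count. Both values of r include these libraries, and their part in it was not tested. CYP7B1 itself had similar means in the diets, at 4.08 CPM in C, 4.32 CPM in DOP and 3.34 CPM in WCOC. Among the cell type lists not described above, KIT, the stem cell factor receptor of mast cells, rose in both diets (log2FC of 0.78 in DOP and 0.87 in WCOC), CLDN5 of the endothelial list rose in WCOC (0.75), and SYT1 of the neuron and glia list rose in WCOC (1.20). None of these calls held without control replicates 3 and 5. KIT was the only called mast cell gene of 4 tested, and the list had a median log2FC of -0.09 in WCOC, with MS4A2 at -0.67 and HDC at -1.04. The DOP call of KIT held in 3 of 15 fits that each left out 1 library. The 6 skeletal muscle genes had a median log2FC of 3.41 in DOP and -2.43 in WCOC, with a wide spread between pigs. Of the T cell, B cell, neutrophil and skeletal muscle lists, 0 genes passed in edgeR in either diet. At an unadjusted p under 0.05 they held 0, 0, 2 and 2 genes in DOP and 0, 1, 1 and 0 in WCOC, and by DESeq2 1 neutrophil gene passed in WCOC.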
